A study of Mus musculus with 24 samples.

Results

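Respiratory complex I, NADH:ubiquinone oxidoreductase, is assembled from nuclear-encoded and mitochondrially encoded subunits, and its nuclear-encoded subunits were described here in epididymal white fat, a visceral fat depot along the epididymis. The genes were chosen by name: every gene whose symbol is Ndufa, Ndufb, Ndufc, Ndufs, Ndufv or Ndufab followed by a number, with the Ndufaf assembly factors left out. This gave 36 of the 19938 named genes on the array, each read from the probe set with the highest mean over all 24 mice. Of these, 6 encode catalytic core subunits, 9 accessory subunits of the peripheral arm, 9 of the proximal and 9 of the distal membrane arm, and Ndufab1 encodes the acyl carrier protein that sits in both arms. The other two share the name only: Ndufa4 is now assigned to complex IV, and Ndufa4l2 is its paralog. Ndufb1, Ndufb4 and the mitochondrially encoded subunits were not analysed here.

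Total RNA came from 24 male wild-type C57Bl/6 mice in 4 groups of 6. From 11 weeks of age the mice were fed for 11 weeks on isocaloric diets with 45% of energy from fat, given as menhaden fish oil or as lard, and they were fasted for 4 h before sampling. On each diet one group was conventional, with a microbiota, and the other was germ-free. Each mouse gave 1 Affymetrix array, and values are log2 signals, so a difference of 1 is a doubling.

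Complex I takes electrons from NADH in its peripheral arm, passes them along iron-sulphur clusters to ubiquinone, and pumps protons through its membrane arm. It is a main entry point of electrons into the respiratory chain. White adipocytes hold fewer mitochondria than brown adipocytes, and their respiratory chain supports lipid storage, fatty acid re-esterification and adipokine secretion.

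Adiponectin mRNA (Adipoq), made by mature adipocytes, lay between 12.60 and 13.75 in all 24 mice, and Plin1, the lipid droplet coat protein, between 12.15 and 12.89. The mean of 10 muscle markers was between 6.66 and 7.07. Some mice stood apart. Lard-fed conventional mice 5 and 6 differed from mice 1 to 4 of their group in most complex I genes, as given below. Of the germ-free mice on lard, mouse 4 had a mean of 9.67 over 15 intestinal epithelium markers, mouse 5 one of 6.68 and mouse 2 one of 6.57, and the mean was between 5.76 and 6.27 in every other mouse. The mean of 19 liver markers was between 8.19 and 9.41 in germ-free mice on fish oil and between 6.35 and 8.18 in the other 3 groups. Array medians ran from 7.09 to 7.20.

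Because the genes moved together, the windows around their transcription starts were read for motifs of factors known to act on nuclear respiratory genes. RefSeq windows of 300 bases, from 250 before to 50 after the start (build GRCm38.p6), were matched for 32 of the 36 genes; 2 had more than 1 window and the first was used. The 4 below belong to the genes with the 2 largest falls with lard (Ndufa5 and Ndufb8), to Ndufs6, an accessory gene with changes in all 4 comparisons, and to Ndufs7, a core gene with small changes. Capitals mark the NRF1 core TGCGCA and the YY1 motif AAGATGGC. The windows lie at chr6:24527477-24527776 (minus strand, Ndufa5), chr19:44555393-44555692 (minus strand, Ndufb8), chr13:73328433-73328732 (minus strand, Ndufs6) and chr10:80249199-80249498 (plus strand, Ndufs7).
Ndufa5: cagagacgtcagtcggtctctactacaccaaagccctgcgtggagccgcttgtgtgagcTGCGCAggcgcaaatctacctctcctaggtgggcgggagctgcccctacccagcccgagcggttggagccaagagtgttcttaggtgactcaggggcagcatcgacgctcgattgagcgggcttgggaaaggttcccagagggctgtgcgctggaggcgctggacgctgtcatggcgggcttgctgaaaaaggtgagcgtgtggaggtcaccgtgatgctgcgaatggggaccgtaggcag
Ndufb8: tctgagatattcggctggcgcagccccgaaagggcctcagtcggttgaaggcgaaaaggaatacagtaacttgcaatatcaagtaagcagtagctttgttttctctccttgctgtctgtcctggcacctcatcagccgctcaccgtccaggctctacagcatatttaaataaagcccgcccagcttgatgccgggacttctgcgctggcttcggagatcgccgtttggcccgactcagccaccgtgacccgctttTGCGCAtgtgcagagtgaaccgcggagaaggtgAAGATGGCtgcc
Ndufs6: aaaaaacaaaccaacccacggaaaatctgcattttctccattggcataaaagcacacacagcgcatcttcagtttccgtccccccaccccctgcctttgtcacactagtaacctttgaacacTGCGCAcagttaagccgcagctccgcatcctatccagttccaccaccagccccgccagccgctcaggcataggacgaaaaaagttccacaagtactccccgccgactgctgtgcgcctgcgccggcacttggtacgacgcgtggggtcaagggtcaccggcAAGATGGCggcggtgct
Ndufs7: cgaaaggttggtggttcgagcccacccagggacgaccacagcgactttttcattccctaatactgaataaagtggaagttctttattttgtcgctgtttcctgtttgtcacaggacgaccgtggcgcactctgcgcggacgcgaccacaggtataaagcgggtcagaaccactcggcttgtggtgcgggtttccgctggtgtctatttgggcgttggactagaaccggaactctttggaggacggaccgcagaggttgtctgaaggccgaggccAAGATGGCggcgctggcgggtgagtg

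The NRF1 core TGCGCA, which reads the same on both strands, was in 9 of the 32 windows (28.1%), against 8.06% of the windows of 27025 genes. These 9 were Ndufa5, Ndufa6, Ndufa8, Ndufa9, Ndufb6, Ndufb8, Ndufb10, Ndufs5 and Ndufs6. AAGATGGC or its complement GCCATCTT, the YY1 motif, was in 7 (21.9%; 2.88% of all windows): Ndufa3, Ndufa9, Ndufb8, Ndufc1, Ndufs4, Ndufs6 and Ndufs7. In all 7 the match lies after the transcription start, and its letters include ATG, which can be a start codon. CCGGAAG or CTTCCGG, a GABP motif, was in 4 (12.5%; 9.12% of all windows), and TGACCTTG or CAAGGTCA, an estrogen-related receptor motif, in 1, Ndufs5 (3.1%; 1.53% of all windows). In the windows of 30 genes of complexes II to V the NRF1 core was in 8 (26.7%), the YY1 motif in 2 (6.7%), the GABP motif in 11 (36.7%) and the estrogen-related receptor motif in 3; these shares were not tested against those of complex I. None of the 4 motifs contains another. All 4 windows printed above hold a match, but many of the other windows hold none. Among these are Ndufa1, Ndufa4 and Ndufb2, which were among the 5 largest falls with lard in conventional mice. Whether a motif goes with the size of a gene's change was not tested. A match is a description of letters, and binding was not measured.

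**Figure D1:**
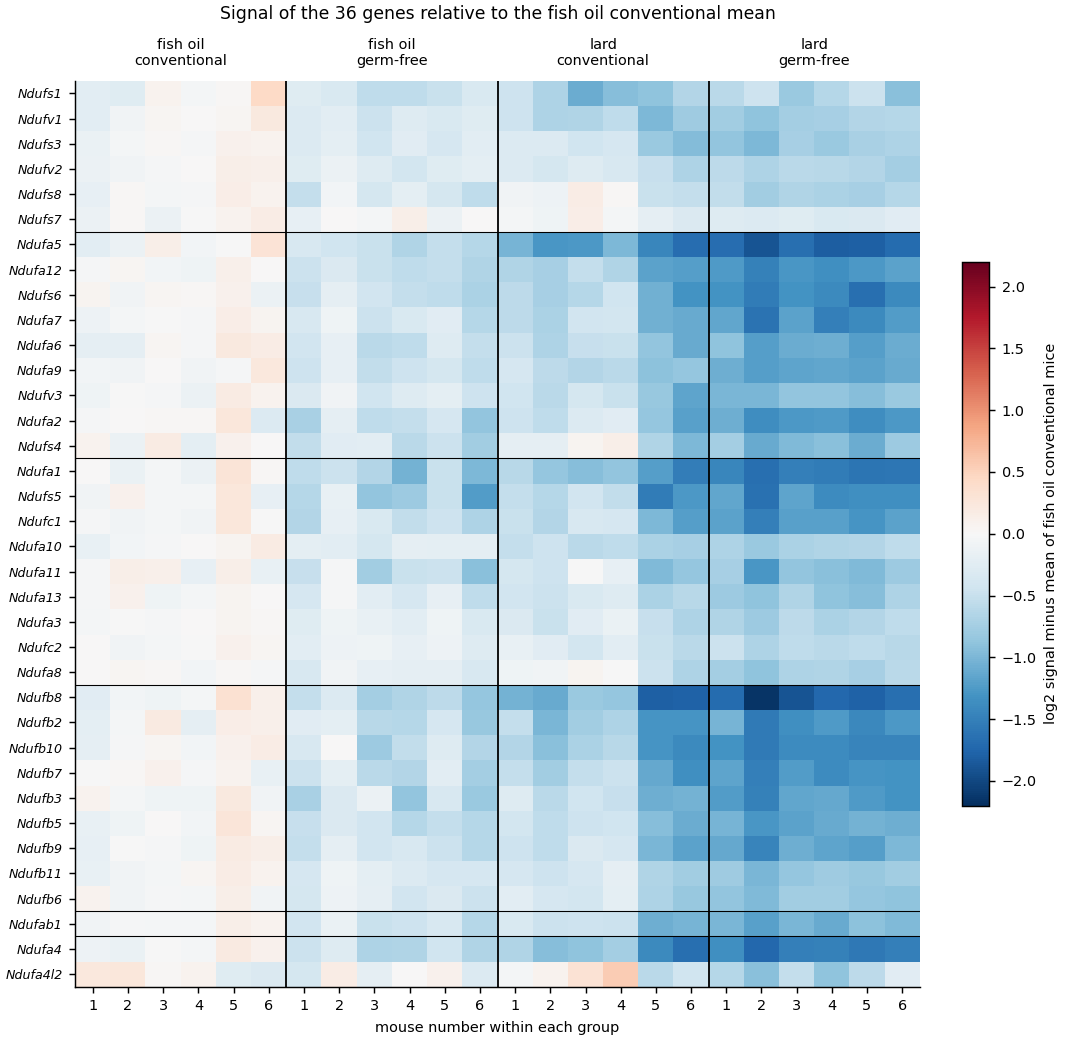
Signal of each of the 36 genes in each of the 24 mice, as log2 signal minus that gene's mean in fish oil-fed conventional mice; rows follow the genes' roles, columns the 4 groups of 6 mice, and blue is lower. Lard-fed germ-free mice are blue in every row, and lard-fed conventional mice 5 and 6 are lower than mice 1 to 4 in 35 of the 36 rows.

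The 4 groups fell in 1 order for most of the genes. For 30 of 36 the mean was highest in fish oil-fed conventional mice, then in fish oil-fed germ-free, lard-fed conventional and lard-fed germ-free mice. The share of all genes with this order was not counted. In Ndufa8, Ndufa11, Ndufs4, Ndufs8 and Ndufa4l2 lard-fed conventional mice lay above fish oil-fed germ-free mice. In Ndufs1 alone the lard-fed germ-free mean was above the lard-fed conventional mean. The mean of the 36 genes ran per mouse from 11.08 to 11.29 in fish oil-fed conventional mice (median 11.15), from 10.60 to 10.99 in the germ-free group on that diet (10.74), from 10.15 to 10.76 in lard-fed conventional mice (10.67) and from 9.96 to 10.20 in lard-fed germ-free mice (10.14). Fish oil-fed conventional mice lay above all other mice on this mean, and lard-fed conventional mice overlapped both germ-free groups.

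The first comparison asked what the fat source did in mice with a microbiota. With lard, 31 of the 36 genes were lower than with fish oil and 0 were higher (limma, adjusted p under 0.05; 33 lower and 0 higher at an unadjusted p under 0.05). Of all 19938 genes 15.6% were lower and 15.4% higher. The median change of the 36 was -0.65, a factor of 1.57, against -0.04 over all genes, and single changes ran from -1.28 to -0.02. At least 1.5-fold was reached by 23 of the 31. Over all 19938 genes, 1627 passed with at least 1.5-fold in either direction. All 6 lard-fed mice lay below all 6 fish oil-fed mice in 29 genes, against 6.62% of all genes. Without Ndufa4 and Ndufa4l2, 30 of 34 were lower.

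Ndufa5, an accessory subunit close to the ubiquinone end of the peripheral arm, changed most. Its signal was 9.38 to 9.92 in fish oil-fed conventional mice (median 9.59) and 7.95 to 8.63 in lard-fed conventional mice (8.35). These ranges were far apart, and the change was -1.28 ± 0.10 (SE; adjusted p = 2.5e-09), a 2.42-fold fall. Ndufb8, in the distal membrane arm and a common antibody target for the assembled complex, was at 11.18 to 11.76 (median 11.38) with fish oil and at 9.63 to 10.61 (10.35) with lard. It fell by 1.24 ± 0.15 (adjusted p = 1.3e-06), and mice 5 and 6, at 9.63 and 9.64, were the lowest of the lard group.

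Ndufa1, a small subunit at the foot of the membrane arm, was at 9.76 to 10.20 (median 9.91) with fish oil and at 8.40 to 9.31 (9.02) with lard. It fell by 1.00 ± 0.12 (adjusted p = 1.3e-06), with no overlap. Ndufb2, another distal subunit, was at 8.94 to 9.36 (9.20) and 7.86 to 8.64 (8.27), and fell by 0.93 ± 0.13 (adjusted p = 7.9e-06), with no overlap. Ndufa4, the complex IV protein, was at 12.07 to 12.41 (12.19) with fish oil and at 10.56 to 11.55 (11.30) with lard, and fell by 1.05 ± 0.12 (adjusted p = 1.1e-06).

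**Figure D2:**
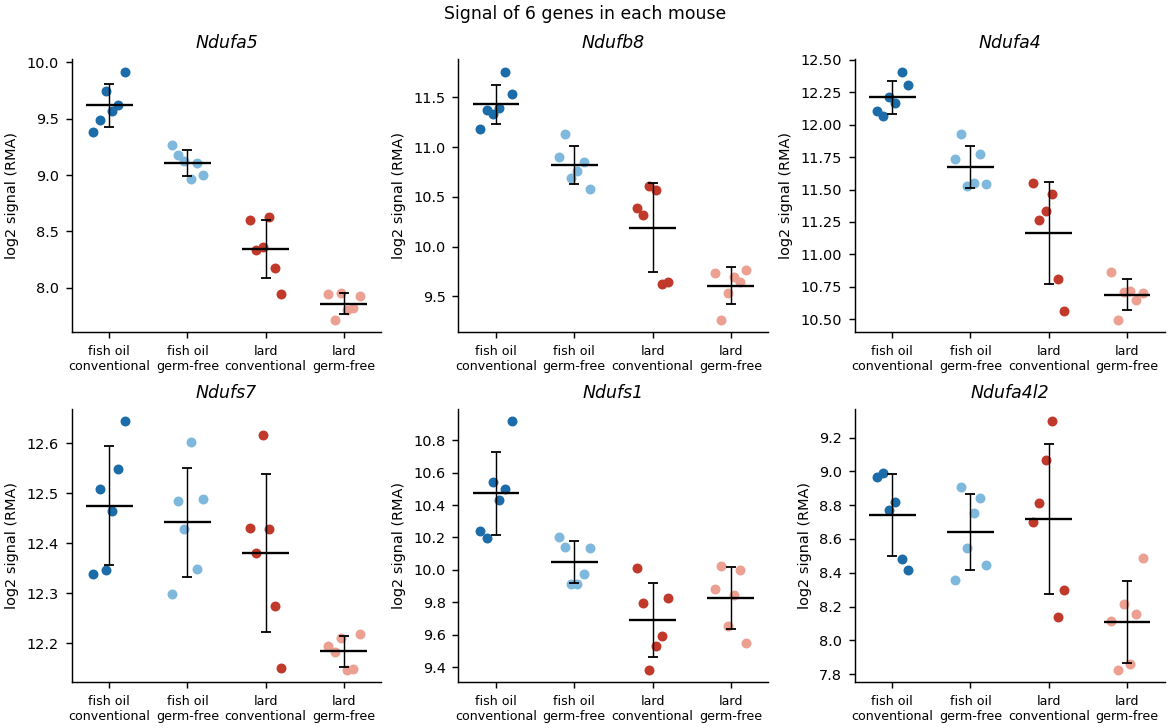
Log2 signal of 6 genes in each mouse by group, with 1 point per mouse and bars for the mean and SD of 6 mice; the vertical axes differ and do not start at 0. Ndufa5, Ndufb8 and Ndufa4 step down from left to right, Ndufs7 and Ndufa4l2 are lower mainly in lard-fed germ-free mice, and in Ndufs1 the lard-fed groups overlap.

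The catalytic core was divided. Ndufs1, the core subunit with the most iron-sulphur clusters, fell by 0.78 ± 0.11 (adjusted p = 1.2e-05). Ndufv1, which binds FMN and oxidises NADH, fell by 0.69 ± 0.08 (adjusted p = 5.2e-07), from 10.93 to 11.37 (median 11.18) down to 10.16 to 10.70 (10.49), with no overlap. Ndufs3, of the ubiquinone-reducing part, fell by 0.53 ± 0.09 (adjusted p = 0.000105), and Ndufv2, which carries an iron-sulphur cluster next to Ndufv1, by 0.42 ± 0.07 (adjusted p = 2.6e-05). Ndufs7 and Ndufs8, which hold the clusters nearest to ubiquinone, had changes of -0.10 ± 0.07 (adjusted p = 0.322) and -0.17 ± 0.10 (adjusted p = 0.221), and their groups overlapped. Ndufs7 was at 12.34 to 12.64 (median 12.49) with fish oil and at 12.15 to 12.62 (12.40) with lard.

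By role, the medians in conventional mice were -0.47 over the 6 core genes, -0.68 over the 9 accessory genes of the peripheral arm, -0.48 over those of the proximal and -0.65 over those of the distal membrane arm. All 9 distal genes were lower (Ndufb2, Ndufb3, Ndufb5, Ndufb6, Ndufb7, Ndufb8, Ndufb9, Ndufb10 and Ndufb11), and so were 8 of 9 in each of the other accessory roles and 4 of 6 core genes. Ndufab1, the acyl carrier protein that anchors LYR-motif subunits such as Ndufa6 and Ndufb9, fell by 0.64 ± 0.11. The roles were not tested against each other. Beside Ndufs7 and Ndufs8, the genes that did not pass were Ndufs4, a late-joining accessory subunit (-0.31 ± 0.14, adjusted p = 0.108), Ndufa8, an intermembrane-space subunit (-0.21 ± 0.09, adjusted p = 0.0966), and Ndufa4l2 (-0.02 ± 0.16, adjusted p = 0.936), a gene known to rise in hypoxia and the smallest change of the 36.

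**Figure D3:**
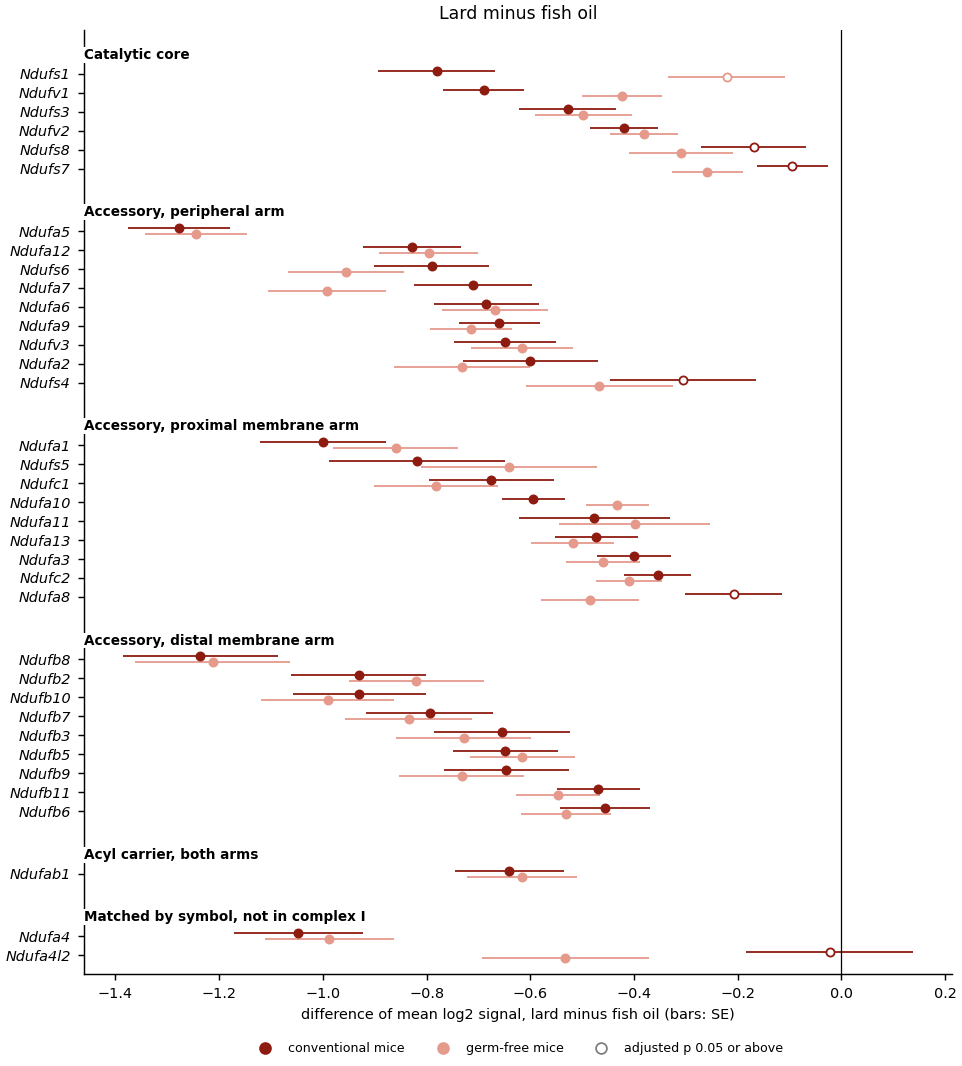
Difference of mean log2 signal, lard minus fish oil, for each of the 36 genes by role, in conventional mice (dark) and germ-free mice (light); bars are the SE of the fit and open circles an adjusted p of 0.05 or above. All points lie left of 0, and 5 dark and 1 light circle are open.

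Lard-fed conventional mice were the least uniform group. The SD was wider there than in any other group in 33 of 36 genes, with a median SD of 0.29 against 0.12 in fish oil-fed conventional, 0.16 in fish oil-fed germ-free and 0.11 in lard-fed germ-free mice. The fit takes a single spread per gene from all groups. In a comparison of lard-fed conventional mice with another group, its SE and adjusted p can therefore be too small. Mice 5 and 6 were both below mice 1 to 4 in 35 genes, all but Ndufs1. Their means over the 36 genes were 10.24 and 10.15, against 10.60 to 10.76 in mice 1 to 4. Without them 30 genes were still lower and 0 higher with lard, against 10.1% of all genes, with a median of -0.46. Ndufa11, which helps to join the membrane arm to other complexes, then had a change of -0.26 (adjusted p = 0.187). Mice 1 to 4 alone lay below all fish oil-fed conventional mice in 29 genes, as the whole group did. With mice 5 and 6 lowest in 35 genes, leaving them out could not change this there, so it is no support. For this count, and for those of the SD and of mice 5 and 6, the share of all genes was not counted.

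Markers of other cells moved with the diet. In conventional mice 19 of 20 macrophage markers were higher with lard and 1 was lower (Cd163, a marker of resident macrophages, -0.56), and 13 of 16 mature adipocyte markers were lower and 1 was higher (Lep, the hormone leptin, 0.48). The mean of the macrophage markers had a median of 10.11 and a highest value of 10.66 in fish oil-fed conventional mice, and ran from 10.79 to 11.70 in lard-fed conventional mice, with mice 5 and 6 at 11.69 and 11.70. The mean of the adipocyte markers ran from 12.59 to 12.79 and from 11.97 to 12.44, with mice 5 and 6 lowest. Of 8 mesothelial markers, genes of the cells that cover the depot, 7 were lower with lard and 0 higher, with a median of -0.80. Their mean ran from 8.39 to 9.44 with fish oil and from 7.89 to 8.55 with lard in conventional mice, and the part of these cells in the changes of the complex I genes was not tested. In RNA of a whole depot, fewer cells of a type and less RNA per cell cannot be told apart. With the macrophage mean as a covariate, 6 of the 36 genes were lower with lard in conventional mice (Ndufa1, Ndufa5, Ndufa9, Ndufa10, Ndufa12 and Ndufs1), against 1.17% of all genes, and the median change was -0.34. With the adipocyte mean as a covariate 10 were lower, against 2.95%, with a median of -0.30, and Ndufa5 kept the lowest adjusted p (-0.93, adjusted p = 4.8e-05). Both means differ between the diets, so a covariate takes part of the diet difference with it.

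**Figure D4:**
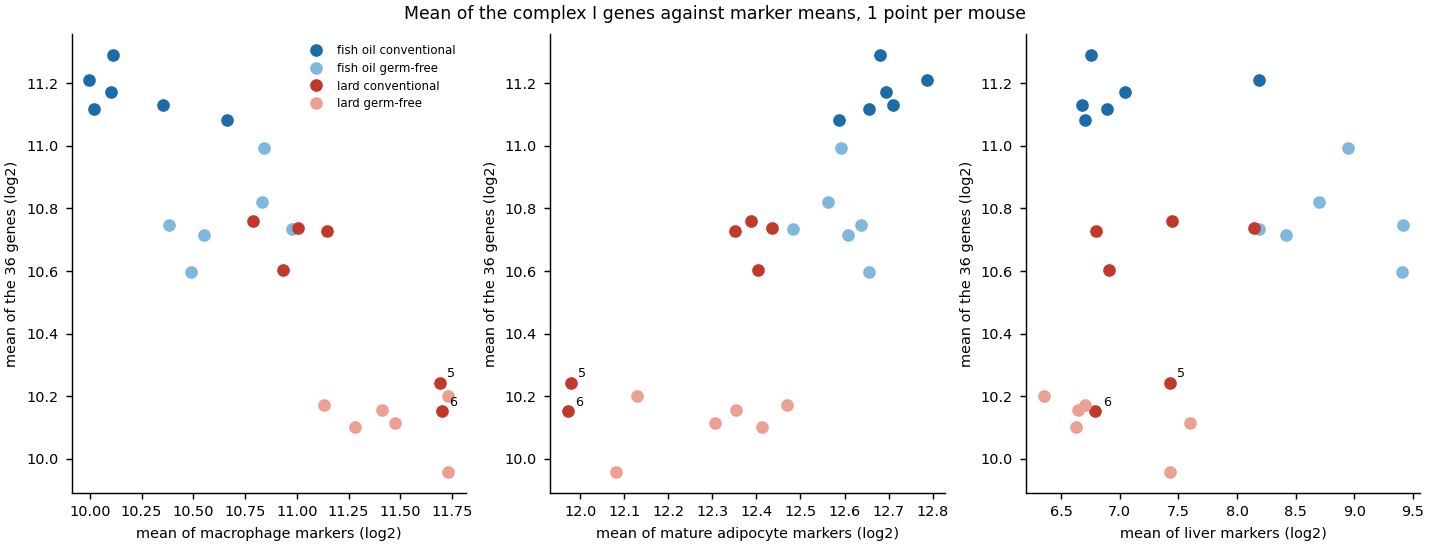
Mean log2 signal of the 36 genes in each mouse against the mean of the macrophage (left), mature adipocyte (middle) and liver markers (right); points are mice, colours the 4 groups, and the numbers name lard-fed conventional mice 5 and 6. Those mice lie beside the lard-fed germ-free mice in the left panel, and fish oil-fed germ-free mice stand to the right in the liver panel.

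The second comparison asked the same of germ-free mice, which share no mice with the first. With lard 35 of 36 genes were lower and 0 were higher (35 and 0 at an unadjusted p under 0.05), against 27.1% of all genes lower and 20.4% higher. The median was -0.62, a factor of 1.53, against -0.08 over all genes, and 20 reached 1.5-fold. Over all 19938 genes, 1985 passed with at least 1.5-fold in either direction. In 30 genes all lard-fed mice lay below all fish oil-fed mice, against 11.1% of all genes. Of the 31 genes lower in conventional mice 30 were lower here too, and they make up 30 of these 35. The share of higher against lower calls over all genes depended on the scaling: 4072 genes were higher and 5396 lower, and 4808 higher and 3313 lower once each array was centred on its median, while 0 of the 36 were higher under either.

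Ndufa5 was again the most changed, at 8.96 to 9.27 with fish oil (median 9.11) and 7.72 to 7.95 with lard (7.88). The fall of 1.25 ± 0.10 (adjusted p = 6.1e-09) was close in size to that in conventional mice. Ndufb8 was at 10.58 to 11.13 (10.81) and 9.26 to 9.76 (9.67), a change of -1.21 ± 0.15 (adjusted p = 1.2e-06), with no overlap. Ndufa7, an accessory subunit of the peripheral arm, was at 9.95 to 10.47 (10.22) and 8.94 to 9.43 (9.25), and its change was -0.99 ± 0.11 (adjusted p = 6.1e-07). Ndufb10, an intermembrane-space subunit of the distal arm, was at 8.09 to 8.90 (8.44) and 7.34 to 7.57 (7.47), a change of -0.99 ± 0.13 (adjusted p = 2.1e-06). Ndufa4 went from 11.53 to 11.93 (11.64) down to 10.49 to 10.86 (10.71), and its change was -0.99 ± 0.12 (adjusted p = 1.6e-06). In all of these genes the groups were separate.

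Among the core genes Ndufs3 changed by -0.50 ± 0.09, Ndufv1 by -0.42 ± 0.08, Ndufv2 by -0.38 ± 0.07, Ndufs8 by -0.31 ± 0.10 and Ndufs7 by -0.26 ± 0.07, with adjusted p from 5.8e-05 to 0.0151. Ndufs7 was at 12.30 to 12.60 (median 12.46) with fish oil and at 12.15 to 12.22 (12.19) with lard, without overlap. Ndufs1 was the smallest change and the only gene that did not pass, at -0.22 ± 0.11 (adjusted p = 0.108), with 9.91 to 10.20 (10.06) against 9.55 to 10.02 (9.86). Quantile normalization of the deposited values once more gave it an adjusted p of 0.0285. Ndufa4l2, at -0.02 in conventional mice, was at 8.35 to 8.91 (8.65) with fish oil and 7.83 to 8.49 (8.14) with lard, and fell by 0.53 ± 0.16 (adjusted p = 0.00925) with overlapping groups. The medians by role were -0.34 for the core, -0.73 for the peripheral, -0.48 for the proximal and -0.73 for the distal accessory genes.

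In germ-free mice 18 of 19 liver markers were lower with lard, 16 of 20 macrophage markers were higher and 1 lower (Cd163, -0.67), and 10 of 16 adipocyte markers were lower and 1 higher (Lep, 0.36). Of the 8 mesothelial markers 6 were lower and 0 higher (median -0.76), with means from 8.77 to 9.49 on fish oil and from 8.08 to 8.93 on lard. With the macrophage mean as a covariate 21 of the 36 genes were lower, against 5.25% of all genes, with a median of -0.36, and with the liver or the adipocyte mean 28 were, against 14.6% and 9.61%. Leaving out mice 2, 4 and 5 of the germ-free lard group, which carry intestinal transcripts, 29 were lower, against 12.0% of all genes, with a median of -0.58.

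The third comparison asked what the microbiota did in mice fed lard. In conventional mice 30 of 36 genes were higher than in germ-free mice and 0 were lower (33 and 0 at an unadjusted p under 0.05), against 8.77% of all genes higher and 7.48% lower. The median was 0.47, a factor of 1.39, against 0.02 over all genes, and 7 genes reached 1.5-fold. Over all 19938 genes, 294 passed with at least 1.5-fold in either direction. The groups were separate in 5 genes, Ndufa7, Ndufa9, Ndufb3, Ndufs6 and Ndufs8, against 2.55% of all genes. Mice 1 to 4 lay above all germ-free mice in 33 genes, so in most of the others mouse 5 or 6 reached down into the germ-free range. For mice 1 to 4 the share of all genes was not counted. The 2.55% is no background for it, since fewer mice separate more easily.

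Ndufa2, a peripheral-arm subunit with a thioredoxin-like fold, rose most. It was at 9.81 to 10.11 (median 9.91) in germ-free and 9.98 to 10.94 (10.67) in conventional mice, a change of 0.67 ± 0.13 (adjusted p = 0.00139), with overlap from 1 low conventional mouse. Ndufs6, a zinc-binding accessory subunit that joins late, was at 8.61 to 8.96 (8.88) and 8.97 to 9.84 (9.60), a change of 0.65 ± 0.11 (adjusted p = 0.000542). Ndufs4, loss of which causes mitochondrial disease in mice and humans, was at 11.33 to 11.68 (11.49) and 11.44 to 12.57 (12.25), a change of 0.64 ± 0.14 (adjusted p = 0.00322).

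Ndufa7 was at 8.94 to 9.43 (9.25) in germ-free and 9.45 to 10.16 (9.93) in conventional mice, a change of 0.64 ± 0.11 (adjusted p = 0.000761). Ndufa4l2 was at 7.83 to 8.49 (8.14) and 8.14 to 9.30 (8.75), a change of 0.61 ± 0.16 (adjusted p = 0.0106). It stood out within the conventional mice, from 8.14 in mouse 5 to 9.30 in mouse 4. Ndufv1 had the smallest change, 0.04 ± 0.08 (adjusted p = 0.778), at 10.27 to 10.53 (10.42) and 10.16 to 10.70 (10.49). The others that did not pass were Ndufa10, a nucleoside kinase-like subunit (0.08), Ndufb2 (0.37), Ndufs7 (0.20), Ndufv3 (0.27) and Ndufs1 (-0.13).

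The call rested on which lard-fed mice were included. Without conventional mice 5 and 6, 33 genes were higher, against 12.9% of all genes, and the median was 0.66. Those mice were the lowest of their group in 35 of the 36 genes. Leaving them out therefore had to raise the difference, and the rise is no support for it. Without germ-free mice 2, 4 and 5 the median was 0.40 but only Ndufa9, at the junction of the arms, passed (0.45, adjusted p = 0.0413), against 0.416% of all genes, when 27 of the 36 were under 0.05 unadjusted. Macrophage and adipocyte markers differed little by this test: 1 of 20 (Csf1r, the receptor of the macrophage growth factor CSF1, -0.59) and 1 of 16 (Plin1, -0.28) passed, both lower in conventional mice. With the macrophage mean as a covariate 26 genes were higher, against 9.03% of all genes. Of the mesothelial markers 0 passed by limma in either status comparison, and 0 were under 0.05 unadjusted.

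**Figure D5:**
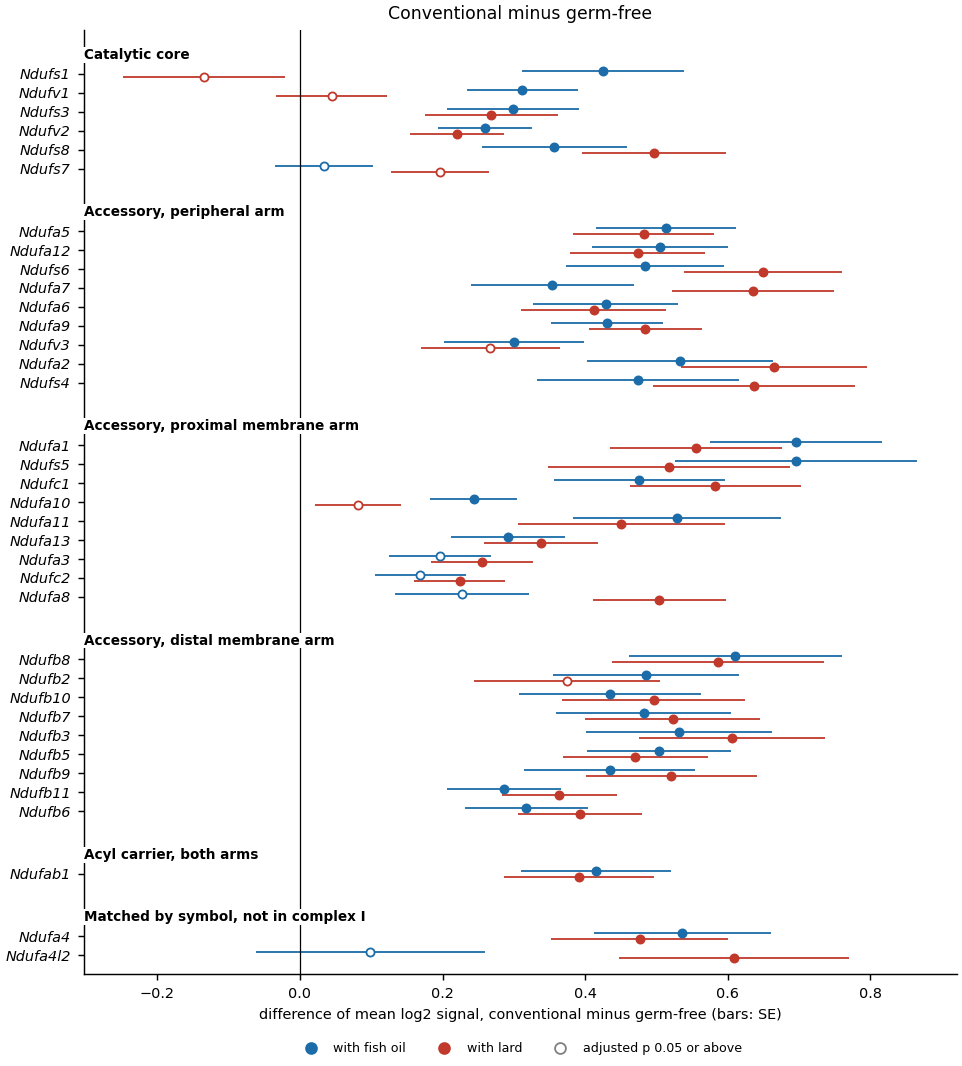
Difference of mean log2 signal, conventional minus germ-free, for each of the 36 genes by role, in mice fed fish oil (blue) and lard (red); bars are the SE of the fit and open circles an adjusted p of 0.05 or above. Every point but that of Ndufs1 with lard lies right of 0, and most genes show like changes on both diets.

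The fourth comparison asked the same with fish oil. In conventional mice 31 genes were higher than in germ-free mice and 0 were lower (34 and 0 at an unadjusted p under 0.05), against 7.15% of all genes higher and 5.21% lower. The median was 0.43, a factor of 1.35, against -0.01 over all genes, and 3 reached 1.5-fold. Over all 19938 genes, 361 passed with at least 1.5-fold in either direction. The groups were separate in 22 genes, against 3.81% of all genes. Over all genes 1425 were higher and 1039 lower, and 2757 higher and 701 lower once each array was centred on its median, where the median of the 36 was 0.49. Of the 30 genes higher with lard and the 31 higher with fish oil, 26 were the same genes.

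Ndufa1 was at 8.88 to 9.45 (median 9.32) in germ-free and 9.76 to 10.20 (9.91) in conventional mice, a change of 0.70 ± 0.12 (adjusted p = 0.000708). Ndufs5, an intermembrane-space subunit, was at 8.74 to 9.82 (9.26) and 9.80 to 10.22 (9.93), a change of 0.70 ± 0.17 (adjusted p = 0.00852), with overlap at a single germ-free mouse. The array also holds a probe set shared by Ndufs5 and its pseudogene, so near-identical copies can add to such a signal. Ndufb8 changed by 0.61 ± 0.15 (adjusted p = 0.00862), Ndufa4 by 0.54 ± 0.12 (adjusted p = 0.00632) and Ndufa2 by 0.53 ± 0.13 (adjusted p = 0.00862), from the levels given above for the first 2 of them and from 10.31 to 10.99 (10.65) up to 10.87 to 11.44 (11.20) for Ndufa2, where the groups overlapped.

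Ndufs7 had the smallest change, 0.03 ± 0.07 (adjusted p = 0.812). Ndufa3 (0.20), Ndufa8 (0.23) and Ndufc2 (0.17), all of the proximal membrane arm, and Ndufa4l2 (0.10) did not pass either. All 9 distal and all 9 peripheral accessory genes were higher, as were 6 of 9 proximal and 5 of 6 core genes. In the same mice 17 of 19 liver markers and 8 of 20 macrophage markers were lower in conventional mice, and 1 of 16 adipocyte markers was higher (Cidea, a lipid droplet protein, 1.20). With the liver mean as a covariate 11 genes were higher, against 4.46% of all genes, and the median was 0.43. With the macrophage mean 6 were (Ndufa1, Ndufa5, Ndufa9, Ndufa12, Ndufb3 and Ndufb5), against 6.93% of all genes, with a median of 0.27. How far liver or macrophage RNA sets these changes was not tested beyond this.

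The last comparison asked whether the status effect depended on the diet. For 1 gene of 36 it did by the test: Ndufs1, with a status change of -0.13 with lard and 0.42 with fish oil, a difference of -0.56 ± 0.16 (adjusted p = 0.0353). Of all genes 2.81% were higher and 4.38% lower in this term, split as 561 and 874, and as 312 and 1688 once each array was centred. Ndufs1 was at 10.20 to 10.92 (median 10.46) in fish oil-fed conventional, 9.91 to 10.20 (10.06) in fish oil-fed germ-free, 9.39 to 10.01 (9.70) in lard-fed conventional and 9.55 to 10.02 (9.86) in lard-fed germ-free mice. Both lard-fed groups overlapped, and the highest fish oil-fed germ-free mouse reached the lowest conventional one.

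This call depended on single mice. It was lost when 1 mouse was left out in 12 of 24 cases: fish oil-fed conventional mouse 3, 5 or 6, fish oil-fed germ-free mouse 3, 4 or 5, lard-fed conventional mouse 3, 4 or 5, and lard-fed germ-free mouse 2, 4 or 5, with adjusted p from 0.0515 to 0.0704. Without lard-fed germ-free mice 2, 4 and 5 together the difference was -0.43 (adjusted p = 0.28). With the liver mean as a covariate it was -1.10 (adjusted p = 0.00168). Over the other 35 genes the differences between the status effects ran from -0.27 to 0.51 with SE from 0.09 to 0.24, and 2 were positive and 2 negative at an unadjusted p under 0.05, Ndufs1 included. Without lard-fed conventional mice 5 and 6, 6 of the 36 genes passed, a share near the 13.6% of all genes. They were Ndufa4l2 (0.76), Ndufa7 (0.47), Ndufa8 (0.46), Ndufs4 (0.42) and Ndufs6 (0.36) with a larger status effect on lard, and Ndufs1 (-0.57). Mice 5 and 6 were the lowest of their group in all of these but Ndufs1, so leaving them out raises that effect.

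Other genes of the respiratory chain were set beside these. Of 38 subunits of complexes II to V and cytochrome c, 35 were lower with lard in conventional mice (median -0.55) and 0 higher, and 33 were lower and 1 higher (Atp5b, a catalytic subunit of ATP synthase, 0.17) in germ-free mice (median -0.58). Uqcr11, a small subunit of complex III, fell by 1.10 and 1.25. With lard 31 were higher in conventional than in germ-free mice and 2 lower, Atp5a1 (-0.22) and Atp5b (-0.27), and with fish oil 24 were higher and 0 lower. Their medians, 0.31 and 0.28, were below the 0.47 and 0.43 of the complex I genes, and the lists were not tested against each other.

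Assembly factors and mitochondrial proteins outside the chain did not all follow. Of 15 complex I assembly factors 10 were lower with lard in conventional mice and 0 higher, led by Ndufaf3 (-0.58) and Ndufaf2 (-0.57). In germ-free mice 7 were lower and 3 higher: Timmdc1, which acts in membrane arm assembly (1.20 ± 0.10, adjusted p = 1.5e-08), Acad9 (0.43) and Foxred1 (0.28). The same 3 genes had interaction terms of -1.14, -0.46 and -0.57, all past the threshold. Of 17 general mitochondrial proteins 11 were lower in conventional mice, led by the chaperones Hspa9 (-0.67) and Hspe1 (-0.64). In germ-free mice 4 were lower and 4 higher with a median of 0.03, where the complex I median was -0.62. Over all genes 27.1% were lower and 20.4% higher in germ-free mice. These 4 and 4, and the 3 assembly factors that were higher, are near those shares.

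Of 15 regulators of respiratory chain genes 6 were lower with lard in conventional mice. Ppargc1a, the coactivator PGC-1alpha, changed by -1.23 ± 0.16 (adjusted p = 3.1e-06), Ppara by -0.71 and Ppargc1b by -0.46. In germ-free mice 5 were lower, Ppargc1a with -0.53, and 2 were higher, Tfb1m (0.64) and Tfb2m (0.46). These germ-free counts are near the shares of all genes, 27.1% lower and 20.4% higher. In conventional mice 15.6% of all genes were lower and 15.4% higher. Ppargc1a was higher in conventional than in germ-free mice with fish oil (0.50, adjusted p = 0.0404). Of 9 brown-like adipocyte markers 3 were lower with lard in conventional mice, Cidea (-1.81), Cox8b (-1.30) and Ppargc1a, and 2 were higher, Otop1 (1.01) and Elovl3 (0.71). In germ-free mice the same 3 were lower and Otop1 was higher (1.01), again near the shares of all genes. Ucp1, the uncoupling protein, had group means from 5.98 to 6.12 and passed in none of the 5 comparisons.

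A total of 24 genes passed in all 4 comparisons of diet and status. Each group enters a pair of these comparisons, so the calls are not independent. The share of all genes passing in all 4, in both diet comparisons or in both status comparisons was not counted. These overlaps therefore have no background beside them. By role these were Ndufs3 and Ndufv2 of the core, Ndufa2, Ndufa5, Ndufa6, Ndufa7, Ndufa9, Ndufa12 and Ndufs6 of the peripheral arm, Ndufa1, Ndufa11, Ndufa13, Ndufc1 and Ndufs5 of the proximal arm, all distal genes but Ndufb2, and Ndufab1 and Ndufa4. The 5 genes with 2 probe sets gave like values from both: with lard in conventional mice Ndufa11 changed by -0.48 and -0.35, Ndufab1 by -0.64 and -0.65, Ndufb11 by -0.47 and -0.44, Ndufc1 by -0.67 and -0.65, and Ndufs3 by -0.53 and -0.58.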

How the data were processed

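RNA of 24 epididymal fat samples was measured on one-colour Affymetrix arrays from 250 ng of total RNA, per the labels' protocols. The values deposited by the authors are log2 signals. Per the submitters' processing notes they come from RMA, which aligns the arrays' distributions; low signals are compressed, which understates changes of weakly expressed genes. The RMA version is not given in the sources used here. Without scan dates a batch could not be tested. No detection p was used, and precision is limited by the number of arrays. No pair of arrays held identical values.

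Of 35556 probe sets, 21789 had 1 gene symbol in the platform annotation, 1621 had several and 12146 had none; the last 2 kinds were left out. Symbols were updated by Entrez ID (21698 found; GRCm38.p6, names only), and the probe set with the highest mean was kept for each of 19938 genes. The 4 group means were fitted to all 24 mice with limma 3.58.1 under R 4.3.3 (lmFit, eBayes), with contrasts for 5 comparisons. Tests are two-sided, adjusted p are Benjamini-Hochberg values over all 19938 genes per comparison, the threshold is 0.05, and errors in the text are SE unless given as SD. The method was checked on simulated data. The complex I genes, the other lists, the rules and the comparisons were chosen with earlier results of these data known. Members given in full are, per comparison, the 5 largest changes past the threshold, the smallest change, those with an interaction, and the core genes in the diet comparisons; of other lists up to 3 of the largest changes are named, and Atp5a1, Atp5b, Cd163, Lep, Foxred1, Otop1 and Elovl3, with genes named for motifs, were picked with their values in view. The alternatives tried were median centring, quantile normalization once more, leaving out genes under the 40th percentile, averaged probe sets per gene, trend and robust priors, fits of just the compared groups, mouse number as a block, a 1.5-fold minimum, leaving out each mouse or the mice that stood apart, and the liver mean as a covariate. The macrophage and adipocyte covariates were added after seeing the data. Promoter windows are RefSeq sequences. Tables and figures used python 3.11.15, pandas 2.3.3, numpy 2.4.6 and matplotlib 3.10.9.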

Additional observations from a re-analysis of the deposited data

Results flagged for a closer look

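In 4 of 144 gene and group combinations 1 mouse lay far from the other 5, where chance flags about 1 in 20. Ndufa10 was at 11.55 in fish oil-fed germ-free mouse 3, against 11.70 to 11.73 in the others. Ndufa9 was at 11.45 in fish oil-fed conventional mouse 6, against 11.13 to 11.23. Ndufb11 was at 11.17 in lard-fed germ-free mouse 2, against 11.33 to 11.41, and Ndufc1 at 11.82 in fish oil-fed conventional mouse 5, against 11.50 to 11.57. The effect of bacterial status on Ndufs1 differed between the diets by -0.56 (limma adjusted p = 0.0353; range over the alternatives 0.00168 to 0.28), with -0.13 on lard and 0.42 on fish oil.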

How the results depend on the processing

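The direction of the complex I genes past the threshold was the same under every alternative run in the 4 comparisons of diet and status: 0 were higher with lard and 0 lower in conventional mice. Leaving out single mice gave 31 to 33 genes lower with lard in conventional mice, 34 to 35 in germ-free mice, 26 to 33 genes higher in conventional mice with lard, 24 to 34 with fish oil, and 0 to 2 in the interaction; where that count was 0, 2 to 5 genes were under 0.05 unadjusted by limma. With a minimum of 1.5-fold, 20 genes were lower in germ-free mice, 7 were higher with lard and 3 with fish oil, and 0 passed in the interaction. Over all 19938 genes, 1985, 294, 361 and 385 passed with this minimum in the same comparisons, in either direction. The macrophage covariate left 6 genes in the first comparison, 21 in germ-free mice and 6 for status with fish oil. The adipocyte covariate left 10 in the first and gave 4 in the interaction. The liver covariate left 11 for status with fish oil and gave 2 in the interaction (Ndufs1 and Ndufv1), as did median centring. No share of all genes is set beside these interaction counts, so they are not read as a result about the complex I genes. Without lard-fed conventional mice 5 and 6 the interaction held 6, near the share of all genes (13.6%). Without lard-fed germ-free mice 2, 4 and 5 it held 0 (2 unadjusted), and status with lard held 1. These alternatives use fewer mice or a covariate that differs between groups, and other causes were not tested.

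Mouse numbers are shared between groups. Of 36 pairs of same-numbered mice 9 had deviations correlated above 0.1 (range -0.497 to 0.351), so the numbers were not taken to pair mice. With the number as a block 31, 35, 29, 28 and 1 genes passed in the 5 comparisons, in the order given in the report.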
